A study of Rattus norvegicus with 88 samples.

Results

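The miRNAs described here are rno-miR-375, which is abundant in pancreatic islets and in other endocrine and epithelial cells, and rno-miR-216a and rno-miR-217, which are abundant in the exocrine pancreas, as measured in rat liver. The prefix rno, for rat, is left out from here on. These 3 miRNAs were looked up by name among the 677 miRNAs of the array, and all 3 belonged to the 314 that were detected in at least 1 liver. They were chosen by their signals over all 88 arrays and 9 ages, and by miR-375 on arrays with and without detected miR-216a or miR-217. The division of the arrays by detection is therefore described and not tested, and the tests between ages and sexes use the same arrays that the choice had in view. Livers came from untreated Fischer 344 (F344) rats, an inbred strain, which were young at 2 weeks, adult at 5, 6 or 8 and at 15 or 21 weeks, and old at 52, 78 or 104 weeks of age. Total RNA from a small portion of the frozen liver of 1 animal, ground and homogenized, was hybridized to each of 88 one-color Agilent rat miRNA arrays, 45 from females and 43 from males. Each age and sex had 5 animals except 5-week and 104-week males, which had 4. An array is named by its age, sex and replicate number.

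MicroRNAs are short RNAs that guide Argonaute proteins to target mRNAs, mostly through pairing of bases 2 to 8, the seed, and thereby lower translation and mRNA stability. In the pancreas, miR-375 acts in beta-cell development and insulin secretion, and it is also expressed in pituitary, gut and other epithelia. The genes of miR-216a, miR-216b and miR-217 form a cluster, and their products are widely used as markers of pancreatic acinar cells, while miR-122 is the dominant miRNA of hepatocytes. The liver carries bile ducts and lies beside the pancreas, but the labels name only whole liver as the tissue and not which part of it was taken, and in a whole-tissue extract fewer cells of a type and less RNA per cell cannot be told apart.

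The mature sequences of the 3 members, and of miR-216b-5p, which shared the detection pattern of miR-217, are shown because the seeds set them apart. They are from RefSeq (rat build GRCr8), where all 3 members were matched, with the seed in capitals and written 5′ to 3′.
miR-375-3p: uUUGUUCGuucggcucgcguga
miR-216a-5p: uAAUCUCAgcuggcaacuguga
miR-216b-5p: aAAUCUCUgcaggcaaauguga
miR-217-5p: uACUGCAUcaggaacugacugg
The mature miR-375-3p lies at chr9:83906591-83906612 on the minus strand. The other 3 lie on the plus strand of chromosome 14, miR-216b-5p at chr14:106714045-106714066, miR-216a-5p at chr14:106725095-106725116 and miR-217-5p at chr14:106732516-106732537. Their 3 hairpins fall within 18.6 kb. The sequences of miR-216a-5p and miR-216b-5p were identical at 18 of 22 positions and at 6 of the 7 seed positions, whereas none of the 4 seeds was shared in full with any other of the 694 mature rat miRNAs searched.

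Signals were total gene signals, the background-subtracted intensity that the scanner software gives to each miRNA, in which undetected miRNAs carry a fixed code. Normalized intensity is this signal divided by the 75th percentile of the array, with undetected values set to 0.0120, the lowest normalized value measured. Between 134 and 255 miRNAs were detected per array, the 75th percentile ranged from 28.1 to 289 intensity units, no target spot was saturated, and the number of arrays limits the precision. The hepatocyte miRNA miR-122 was detected on all 88 arrays.

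Both pancreatic miRNAs were seen in a minority of livers. Detection of miR-216a was recorded on 16 of 88 arrays and that of miR-217 on 5, and all 5 were among the 16. The arrays with both were 15-week female 2, 21-week female 3, 21-week male 3, 78-week female 1 and 78-week female 4. The remaining 11 arrays, with miR-216a alone, were 2-week female 4, 5-week female 1, 6-week females 1, 4 and 5, 8-week male 1, 15-week male 1, 21-week females 1 and 4, 52-week female 1 and 78-week female 5. Detected arrays were found in 10 of the 18 groups, and in none of the 104-week animals. Passenger strands miR-216a* and miR-217*, and the opposite arm miR-216b-3p, were detected on 0 arrays, and so was miR-375*.

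On the 5 arrays with both, all 3 products of the cluster were recorded. The normalized intensity of miR-216a was 0.240 on 15-week female 2, 0.463 on 21-week female 3, 0.827 on 21-week male 3, 0.892 on 78-week female 1 and 0.873 on 78-week female 4. Of miR-217 it was 0.110, 0.279, 0.673, 0.512 and 0.656 on the same arrays in the same order. The other cluster member, miR-216b-5p, was detected on exactly these 5 arrays, with 0.0356, 0.0740, 0.143, 0.106 and 0.0913. For each of the 3, 15-week female 2 was the lowest and 21-week female 3 the next, and the other 3 arrays lay above both. On the 11 arrays with miR-216a alone it lay between 0.0583 and 0.267, so that 1 of them, 6-week female 4 at 0.267, exceeded the lowest of the 5. In intensity units, the miR-216a signal was 15.8 to 83.0 on the 5 arrays and 2.68 to 10.4 on the 11.

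Probe signals were read apart from the detection calls. Among the 20 spots of miR-217, the brighter of its 2 probes read between 7.26 and 39.6 intensity units on the 5 arrays with both miRNAs, and between 1.10 and 4.43 on the 11 arrays where the software called miR-216a but not miR-217. On the 72 arrays with neither it ranged from -4.87 to 1.52 with a median of -0.59. Thus 9 of the 11 arrays without a miR-217 call exceeded every array with neither. The brightest of the 4 miR-216a probes read from 10.7 to 50.5 on the 5 arrays, 2.68 to 6.86 on the 11, and -2.93 to 1.68 on the 72, while its dimmest probe did not part the arrays (at most 0.262, 0.158 and 0.622). The order of the brightest miR-216a probe is fixed by construction, since the arrays were divided by the call made from these probes. The same holds for the place of the 5 arrays on the miR-217 probe, since they were picked by the miR-217 call. Only the miR-217 probe on the 11 arrays against the 72 is not set by a call on miR-217.

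**Figure D1:**
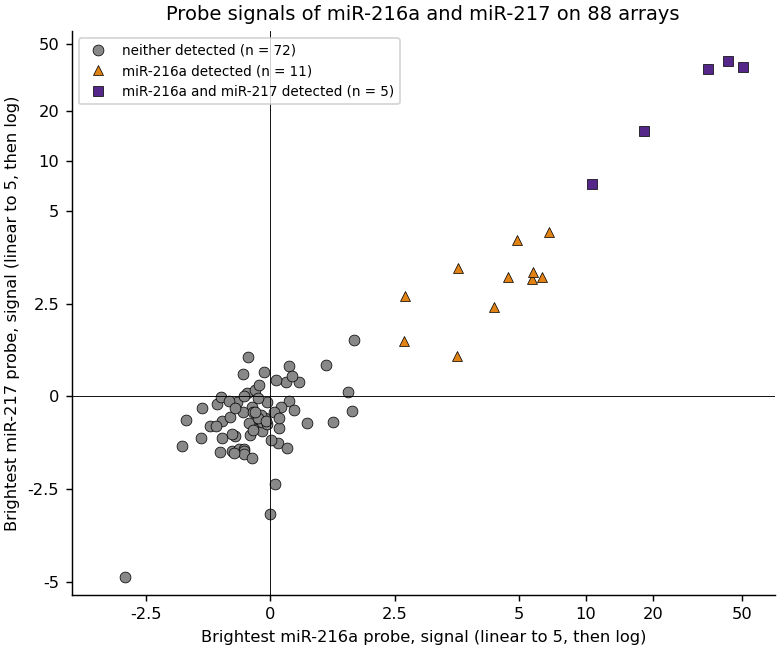
Background-subtracted signal of the brightest miR-216a probe (horizontal) and the brightest miR-217 probe (vertical) on each of the 88 arrays, both in intensity units, linear up to 5 and logarithmic beyond. Squares mark the 5 arrays with both miRNAs detected, triangles the 11 with miR-216a only and circles the 72 with neither. The squares lie highest on both axes, which follows from the calls that define them. On the vertical axis 9 of the 11 triangles lie above the highest circle (1.52).

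Detection of miR-216a was more frequent in females. It was found on 13 of 45 female arrays (28.9%) and 3 of 43 male arrays (6.98%), a gap of 21.9 percentage points. A gap of this size or larger in favor of females was held by 15 of the 314 expressed miRNAs (4.78%), and 135 of 314 (43.0%) were detected on a larger share of female arrays. From 5 to 104 weeks, the median number of miRNAs detected was 179.5 on 40 female and 164 on 38 male arrays, and the part of this in the counts was not tested. By scan session, a group of arrays scanned close in time, the 16 arrays with miR-216a comprised 1 of 13 in scan 2, 10 of 30 in scan 3 and 5 of 28 in scan 4, and none of the 1 in scan 1 or the 16 in scan 5. They spanned 9 of the 13 slides.

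Neither acinar miRNA was called by age. For miR-216a the limma F test over the 9 ages gave an adjusted p of 0.184 in females, and for miR-217 one of 0.188. Old minus adult differed by 0.14 ± 0.63 (log2, SE) for miR-216a and 0.44 ± 0.45 for miR-217 in females, and by -0.53 ± 0.38 and -0.24 ± 0.30 in males, with adjusted p-values from 0.523 to 1. Of the 314 miRNAs, 57.3% were called by age in females and 54.1% in males. Between the sexes both were called at 78 weeks, where 2.55% of the 314 were called as higher in females. There, miR-216a was detected in 3 of 5 females and miR-217 in 2 of 5, against 0 of 5 males for each. The limma adjusted p was 0.0497 for both and passed the threshold of 0.05 only narrowly, rising to 0.0534 with the replicate number as a block and to 0.062 with scan as a block. The calls were lost under 12 of 13 alternatives for miR-216a and 11 of 13 for miR-217, of which 2 took out the arrays with detection themselves, and in 68 and 77 of 88 fits that left out 1 array. Without 78-week female 1 the adjusted p was 0.161 for miR-216a and 0.211 for miR-217, and without 78-week female 4 it was 0.184 and 0.273. For a rough ratio, the males were set to the geometric mean of the lowest detected values of their arrays (0.0610), and the 2 undetected females to 0.0120. On this footing miR-216a was 1.64-fold higher in 78-week females, but the ratio fell below 1 without female 1 (0.950) or female 4 (0.955). It is not a lower bound, because an undetected signal can lie above the lowest detected value of its array. For miR-217 the ratio was below 1 with all 5 females, so no fold is given for it.

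miR-375 was the member that most livers expressed. It was detected on 76 of 88 arrays, on 44 of 45 from females and 32 of 43 from males, with normalized intensities from 0.0908 to 1.46 where detected. Undetected arrays were 6-week female 6 and 11 males, of which 2 were 6 weeks, 2 were 8 weeks, 4 were 15 weeks, 2 were 21 weeks and 1 was 52 weeks of age. On these 12 arrays the brighter miR-375 probe still read between 2.98 and 8.27 intensity units, without a call by the software. The lowest detected miR-375 signal was 4.21, so undetected and detected signals overlapped. The 12 arrays were dim, with a median 75th percentile of 37.2 against 64.8 on the other 76, and 6 of the 12 belonged to scan 2.

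Arrays with both acinar miRNAs had high miR-375 for their age and sex. The median normalized intensity of miR-375 was 0.803 on the 5 arrays with miR-216a and miR-217 (0.430 to 1.18), 0.371 on the 11 with miR-216a alone (0.215 to 0.724) and 0.216 on the 72 with neither (0.0120 to 1.46, with 12 undetected). The 3 ranges overlapped, and the 72 arrays included young and old animals. Without the 2-week arrays the medians were 0.803, 0.368 and 0.195 on 5, 10 and 63 arrays. In adult females they were 0.548 for 2 arrays, 0.368 for 6 and 0.203 for 17. In old females they were 1.15 for 2 arrays, 0.568 for 2 and 0.578 for 11, and the 2 old females with miR-216a alone, 0.419 and 0.718, lay within the range of the 11 (0.317 to 1.09). Before scaling, the median miR-375 signal was 59.7, 17.8 and 14.5 intensity units on the 5, 11 and 72 arrays. The arrays with miR-216a alone did not lie above those with neither in unscaled signal everywhere: the medians were 18.4 and 24.2 in females of 5 to 104 weeks, 38.6 and 45.6 in old females, and 49.3 (1 array) and 99.7 in young females. The 11 arrays were also dimmer, with a median 75th percentile of 48.8 against 62.9 on the 72 and 74.3 on the 5, and the part of this in the normalized values was not tested.

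Set against animals of the same age and sex without miR-216a or miR-217, all 5 arrays with both lay above each of them. In 15-week females, array 2 had a miR-375 of 0.430, and the 4 others had 0.253 to 0.322. In 21-week females, array 3 had 0.665, and the 2 without either miRNA had 0.363 and 0.463. In 21-week males, array 3 had 0.803, and the 4 others were at most 0.219, with 2 of them undetected. In 78-week females, arrays 1 and 4 had 1.12 and 1.18, and the 2 without either had 0.430 and 0.578. The ratio to the median of those animals ran from 1.57 to 13.0. Of the 11 arrays with miR-216a alone, 8 lay above every such animal of their group and 9 above the median. The exceptions to the latter were 78-week female 5 (0.419) and 21-week female 1 (0.408). How many other expressed miRNAs show the same pattern on these arrays was not tested, so these counts have no background share beside them. The comparison also rests on the division of arrays by which miR-375 was chosen. In 21-week and 78-week females it had only 2 animals to compare with.

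**Figure D2:**
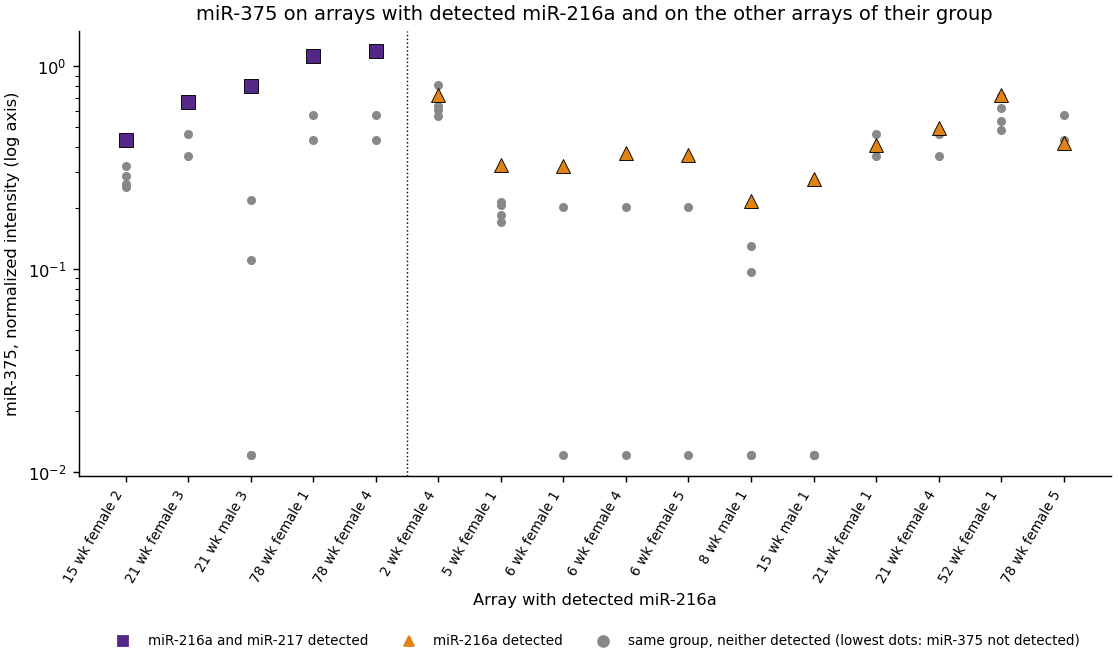
Normalized intensity of miR-375 (log axis) on each of the 16 arrays with detected miR-216a (colored) and on the arrays of the same age and sex with neither miR-216a nor miR-217 (gray dots, no error bars because each point is 1 animal). The 5 squares to the left of the dotted line, with miR-217 also detected, all lie above the gray dots of their group. Of the 11 triangles, 8 do.

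Other cell markers on these arrays were read from lists of miRNAs. The epithelial miRNA miR-200c was detected on 10 arrays, all 5 with miR-217 among them, at 0.0707 to 0.297 on those 5. The summed level of the 8 biliary and gut epithelial miRNAs (miR-200a, miR-200b, miR-200c, miR-141, miR-429, miR-31, miR-203 and miR-215) ranged from 6.39 to 12.6 on the 5 arrays, 5.42 to 7.13 on the 11 and 2.76 to 9.18 on the 72. The highest of these was 21-week male 3, which was the only array with detected miR-215, a miRNA of gut and kidney, at 3.18. Hepatocyte miRNAs (miR-122, miR-192, miR-194 and miR-802) summed to 893 to 1250 on the 5 arrays and 399 to 1388 on the 72. The 5 blood cell miRNAs summed to 11.9 to 24.4 and 5.92 to 41.1. For both lists the 5 arrays lay inside the range of the 72. The part of other cell types in the miR-375 values was not tested.

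Most listed endocrine markers were not detected. Of the 17 islet and neuroendocrine miRNAs listed, 15 were on the array and 6 were detected anywhere. The neuronal and endocrine miRNAs miR-7b, miR-184, miR-124, miR-9 and miR-129 were detected on 0 arrays. miR-7a, which is abundant in islets and also found in many other tissues, was detected on all 88, and its passenger strand miR-7a-1* on 75. miR-153 was detected on 1 array, 104-week female 8 (0.0932), whose miR-375 was 1.09. The pair miR-204 and miR-211 was detected on 2 arrays, 78-week female 1 (0.115 and 0.172) and 78-week male 6 (0.334 and 0.811). The latter array had the highest miR-375 of all 88, 1.46, with neither miR-216a nor miR-217 detected, and the other 4 males of its age had 0.246 to 0.273.

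Over the life span of females miR-375 was high at 2 weeks, low in the adult and high again in old animals. In females the normalized intensity was 0.668 ± 0.095 (SD, n = 5) at 2 weeks, 0.220 ± 0.061 at 5 weeks, 0.255 ± 0.152 at 6 weeks, 0.131 ± 0.033 at 8 weeks and 0.311 ± 0.072 at 15 weeks. It then stood at 0.479 ± 0.116 at 21 weeks, 0.614 ± 0.103 at 52 weeks, 0.746 ± 0.377 at 78 weeks and 0.683 ± 0.312 at 104 weeks (n = 5 each). Individual females ran from 0.568 to 0.804 at 2 weeks, 0.0908 to 0.181 at 8 weeks and 0.317 to 1.09 at 104 weeks, so the 8-week animals overlapped with neither of the others. The lowest mean was at 8 weeks, and the spread was widest in the oldest groups.

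In males the means were lower at all ages, highest at 2 weeks and low from 5 to 52 weeks. The mean was 0.523 ± 0.057 (SD, n = 5) at 2 weeks and 0.172 ± 0.015 (n = 4) at 5 weeks. From 6 to 21 weeks the 20 males had detected values on 10 arrays, 3 of 5 at 6 and at 8 weeks, 1 of 5 at 15 weeks and 3 of 5 at 21 weeks, and their highest values were 0.145, 0.215, 0.277 and 0.803. The mean was 0.165 ± 0.092 (n = 5) at 52 weeks, 0.503 ± 0.537 (n = 5) at 78 weeks, where the median was 0.273, and 0.280 ± 0.058 (n = 4) at 104 weeks. Of the old animals, 1 of 14 old males and 9 of 15 old females lay above the lowest 2-week animal of their sex. In order of the 18 group means, from 78-week females at the top to 15-week males at the bottom, 16 of the 17 gaps between neighbors were smaller than the larger SD of the pair. The exception was the step from 21-week females (0.479) to 15-week females (0.311).

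**Figure D3:**
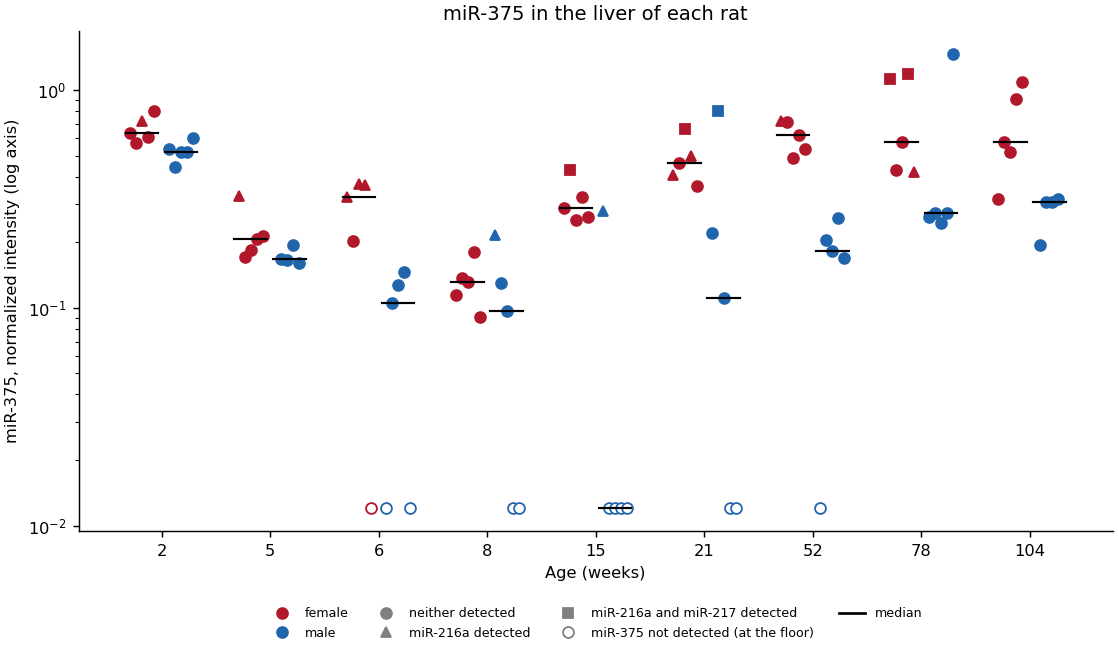
Normalized intensity of miR-375 (log axis) against age for each of the 88 animals, females in red and males in blue, with the median of each group as a bar. Open circles at the bottom are the 12 arrays without detection, set to 0.0120, of which 11 are males. Squares and triangles mark arrays with detected miR-216a, and the female medians are lowest at 8 weeks and above 0.4 from 21 weeks on.

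Some of the differences of miR-375 between ages were called in each sex. By the limma F test over 9 ages, the adjusted p was 6.45e-05 in females and 0.00303 in males. In females, 13 of the 36 pairs of ages were called at an adjusted p under 0.05 and at least 1.5-fold. Of these, 3 were falls from 2 weeks, to 5, 6 and 8 weeks. A further 9 were rises from 5, 6 and 8 weeks to 52, 78 and 104 weeks, and the last was the rise from 6 to 21 weeks. The rise from 8 to 78 weeks was the largest in females, by 2.40 ± 0.52 (log2, SE, limma adjusted p = 0.00224), in a comparison where 2.23% of the 314 were called as higher. Over these 13 pairs, between 1.91% and 16.9% of the 314 were called in the same direction as miR-375. In males 6 pairs were called (with 1.59% to 19.1% of the 314), the falls from 2 weeks to 6, 8, 15 and 21 weeks and the rises from 15 weeks to 78 and 104 weeks. The rise from 15 to 78 weeks in males was by 4.04 ± 1.03 (adjusted p = 0.0259), where 1.59% of the 314 were called as higher, and 4 of its 5 younger animals were at the floor. With undetected values at the lowest of their array it was 1.91, and with the mean processed signal of the spots it was 1.51, both called. This call was lost without 78-week male 6 (3.55, adjusted p = 0.0903) and held in 37 of 43 fits that left out 1 male. Without the arrays with detected miR-216a or miR-217, the rise from 8 to 78 weeks in females was 1.97 (adjusted p = 0.117) and not called.

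Old livers had more miR-375 than adult livers in both sexes. The median was 0.579 in 15 old females (0.317 to 1.18) against 0.261 in 25 adult females (0.0120 to 0.665), and all 15 old females lay above the adult median. It was 0.260 in 14 old males (0.0120 to 1.46) against 0.108 in 24 adult males (0.0120 to 0.803), and 13 of 14 old males lay above the adult median. The limma difference was 1.47 ± 0.30 (log2, SE, adjusted p = 0.00046) in females, or 2.77-fold, and 1.96 ± 0.58 (adjusted p = 0.0187) in males, or 3.90-fold. In females 5 of the 314 miRNAs (1.59%) were called as higher in old animals, and in males 12 (3.82%). The difference of these differences was 0.49 ± 0.64 (adjusted p = 0.996) and was not called, and its sign depended on how undetected values were set. With undetected values at the lowest detected value of their array, the rise was 1.37 in females and 1.02 in males.

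The fit was repeated without some of the arrays, as a description of how the value moves. Without the 16 arrays with detected miR-216a or miR-217 it was 1.75 in females (adjusted p = 0.00131) and 2.34 in males (adjusted p = 0.00237). The 3 adult males left out all had detected miR-375, so that 10 of the 21 remaining were at the floor. With 78-week male 6 also left out it was 2.14 in males (adjusted p = 0.00546), and without that array alone it was 1.76 (adjusted p = 0.0452). Within scans 2 to 5, the rise in females was 1.85, 1.40, 1.51 and 0.90, over 1 to 6 old and 2 to 10 adult arrays, and in males 1.16, 1.53 and 2.48 in scans 3 to 5, over 2 to 5 and 4 to 8 arrays. In scan 2 all 4 adult males were undetected, so the male value there depends on the floor and is not given. The printed male values also held undetected adult arrays, 1 in scan 3, 2 in scan 4 and 2 in scan 5. The female value in scan 2 held 6-week female 6, also undetected. These values depend on the floor in part. Scan 1 held 1 array. With scan as a block the rise was 1.44 in females (adjusted p = 0.000915) and 2.06 in males (adjusted p = 0.00867). The median 75th percentile of the arrays was 57.0 in adult and 77.6 in old females, and 46.9 in adult and 59.98 in old males, and the part of this brightness in the difference was not tested.

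The fall from 2 weeks to the adult was also called in both sexes. It was by -1.53 ± 0.45 (log2, SE, limma adjusted p = 0.00344) in females, where 16.9% of the 314 were called as lower, and by -3.18 ± 0.85 (adjusted p = 0.00118) in males, where 19.7% were. Only 1 of 25 adult females and 1 of 24 adult males reached the lowest 2-week animal of their sex, and these were 21-week female 3 and 21-week male 3, both with detected miR-217. With undetected values at the lowest of their array, the fall in males was by -2.02. Within scans the fall ranged from -2.48 to -1.02 in females (scans 2, 4 and 5) and from -3.41 to -2.20 in males (scans 3 to 5). The median 75th percentile was 101 in young females and 133 in young males against 57.0 and 46.9 in adults. No young array lacked detection of miR-375, against 1 of 25 in adult females and 10 of 24 in adult males, and the part of brightness was not tested. Old livers differed from young ones by -0.07 ± 0.47 in females (adjusted p = 0.988) and -1.22 ± 0.90 in males (adjusted p = 0.291), neither called.

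Females had more miR-375 than males at 3 ages. At 15 weeks the 5 females had 0.253 to 0.430, and of the 5 males 1 had 0.277 and 4 were undetected. The difference, male minus female, was -3.76 ± 0.81 (log2, SE, limma adjusted p = 0.00056), where 6.05% of the 314 were called as higher in females. At 21 weeks the females had 0.363 to 0.665 and the males 0.0120 to 0.803, and the difference was -2.59 ± 0.81 (adjusted p = 0.0312, 3.50% called). Without 21-week male 5 or 6, both undetected, it was -1.92 and not called (adjusted p = 0.27), and the call was also lost without female 2, 3 or 4 (adjusted p = 0.0587, 0.082 and 0.0616) and under 3 of 14 alternatives. At 52 weeks all 5 females (0.487 to 0.718) lay above all 5 males (at most 0.257), and the difference was -2.41 ± 0.81 (adjusted p = 0.0482, 4.14% called). Without 52-week male 1, the 1 undetected male, it was -1.60 and not called (adjusted p = 0.359), and 30 of 88 fits that left out 1 array lost the call. At 104 weeks the groups did not overlap either, 0.317 to 1.09 in females and 0.194 to 0.315 in males, but the difference of -1.18 ± 0.86 was not called (adjusted p = 0.896). At 2, 5, 6, 8 and 78 weeks the difference was between -1.71 and -0.32 and was not called, and females had the higher mean at all 9 ages. From 5 to 104 weeks the median 75th percentile was 64.9 on 40 female and 52.6 on 38 male arrays, with miR-375 undetected on 1 and 11 of them. The part of this brightness in the sex differences was not tested.

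**Figure D4:**
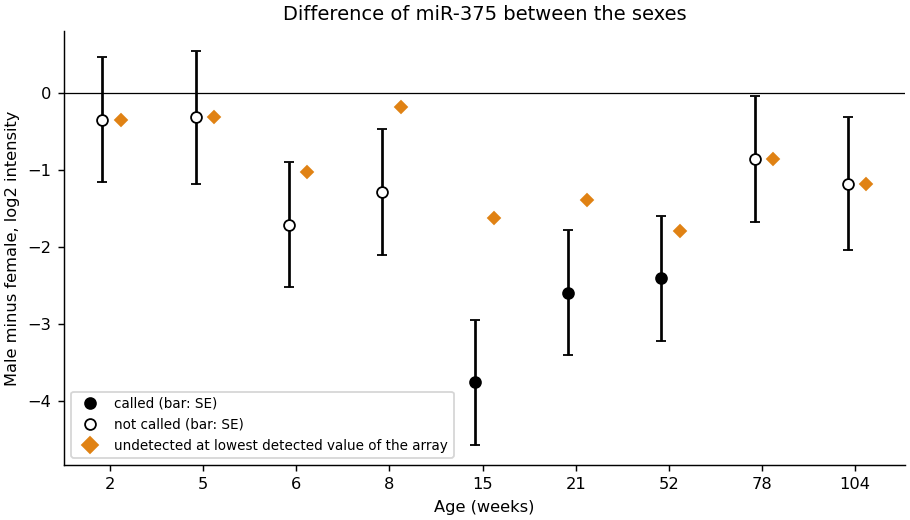
Male minus female difference of miR-375 on the log2 scale at each age, with the standard error of the limma fit (circles, filled where called). Diamonds give the same difference with undetected values at the lowest detected value of their array instead of 0.0120. All circles lie below 0, the 3 filled ones being 15, 21 and 52 weeks, and the diamonds lie nearer to 0 from 6 to 52 weeks.

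These differences were smaller when undetected values were set higher. With the lowest detected value of each array in place of 0.0120, they were -1.63 at 15 weeks, -1.39 at 21 weeks and -1.79 at 52 weeks, and all 3 were called (adjusted p from 0.000868 to 0.0169). At 52 weeks the call was lost under 5 of 14 alternatives, among them scan as a block (-1.76, adjusted p = 0.16). With scan as a block the call at 21 weeks held (-2.36, adjusted p = 0.0391). Without the arrays with detected miR-216a or miR-217 the difference was -4.54 at 15 weeks, -3.24 at 21 weeks and -2.35 at 52 weeks, each called. The 4 males left at 15 weeks in that fit were all undetected, so the size and the call there rest on the value given to undetected arrays. Over whole classes the difference was -1.998 ± 0.39 (adjusted p = 9.59e-05) in adults, where 3.50% of the 314 were called as higher in females, and -1.504 ± 0.51 (adjusted p = 0.0482) in old animals, where 2.55% were. Within scans 3 to 5 it was -1.27, -1.14 and -2.89 in adults, with undetected males in each of these scans. Within scans 2 to 5 it was -1.82, -1.51, -1.13 and -1.31 in old animals, with 52-week male 1 undetected in scan 2. With undetected values at the lowest of their array it was -0.93 in adults and -1.28 in old animals. The call in old animals was lost with scan as a block (-1.29, adjusted p = 0.0855) and without the arrays with acinar miRNAs (-1.38, adjusted p = 0.113).

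Among the 167 other miRNAs detected on at least 39 of the 78 arrays from 5 to 104 weeks, those most like miR-375 had moderate correlations. Pearson's r of the log2 values was 0.63 for miR-152, 0.57 for miR-107, 0.56 for let-7d*, 0.53 for miR-324-5p and 0.53 for miR-425, with Spearman's rho of 0.65, 0.56, 0.38, 0.41 and 0.40. These points share age, sex and array brightness. Taken within groups, as deviations from the mean of each age and sex, r was 0.37, 0.22, 0.51, 0.33 and 0.23, so for miR-107 and miR-425 most of the likeness lay between groups. For miR-216a, the share of arrays in common out of all arrays with either was 0.313 with miR-217 and with miR-216b-5p and 0.300 with miR-200c. For miR-217 it was 1 with miR-216b-5p, 0.5 with miR-200c and 0.429 with miR-327, which shared 3 of its 5 arrays.

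Of the listed islet miRNAs, miR-375 was the one called between adult and old livers. Of the 6 detected islet and neuroendocrine miRNAs, no other was called by limma in that comparison in either sex, and 3 had an unadjusted p under 0.05 in females and 2 in males, miR-375 among them. The median difference of the 6 was 0.25 (log2) in females and 0.39 in males beside 0 over all 314. Beside these counts, 1.59% of the 314 were called as higher and 2.87% as lower in old females, and 3.82% and 1.27% in old males. Of the 8 biliary and gut epithelial miRNAs 0 were called in females, with 3 at an unadjusted p under 0.05, and in males 1 was higher, miR-203, and 1 lower, miR-200b. Of the 4 hepatocyte miRNAs 0 were called in females, with 0 at an unadjusted p under 0.05, and 1 in males, miR-802, which was higher. Of the 5 blood cell miRNAs 0 were called in either sex, with 4 at an unadjusted p under 0.05 in females and 2 in males. Of the 5 skeletal muscle miRNAs, miR-1 and miR-133b fell in females, and 0 were called in males, with 1 at an unadjusted p under 0.05. From 2 weeks to the adult, where 22.9% of the 314 miRNAs were called as higher in females and 29.9% in males, all 4 hepatocyte miRNAs rose in both sexes, as did 4 of 5 blood cell miRNAs in females and all 5 in males. In the same comparison miR-375 fell, and of the islet list miR-7a rose in both sexes. Of the epithelial list, miR-200a and miR-200b fell in females as miR-375 did (16.9% of the 314 were called as lower), miR-31 and miR-203 rose in females, and miR-31 rose in males. Between adult males and females, where 3.50% of the 314 were called as higher in females and 1.27% as higher in males, miR-375 was the 1 called of the 6 islet miRNAs. Of the other lists, miR-203 was higher in females, and miR-200b, miR-144 and miR-451 were higher in males.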

How the data were processed

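Data were processed from the 88 scanner files that the authors deposited, where each spot and each miRNA has a linear intensity from which Feature Extraction 10.7.3.1 had taken the background, and 0.1 marks an undetected miRNA. The authors also deposited a table of ratio values, the total gene signal over the 75th percentile of the array, which served as an alternative (1 of 15763 detected values differed by over 0.01%). Each miRNA had 20 spots, and the members were found by name on the first array design and by probe on the 17 arrays of a later one. For each array the 75th percentile was the value of rank 236 among the 314 detected miRNAs, with undetected signals at 1.84, the lowest measured. Detected signals were divided by this percentile, all others took the value 0.0120, and log2 was taken. Fold changes that involve undetected arrays depend on that value.

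Tests used limma 3.58.1 in R 4.3.3 (lmFit, eBayes) on all 314 miRNAs with no block, as the study's methods compare ages within each sex and sexes at each age. Ages and age classes were fitted within each sex, sexes over all 88 arrays. Calls needed an adjusted p (Benjamini-Hochberg) under 0.05 with a change of at least 1.5-fold. Arrays were from independent animals, and scan sessions (1 to 5, parted by gaps of over 8 hours) served as the batch, since processing batches by sample were not used here. Replicate numbers were not taken to pair animals (median correlation of deviations 0.0489 for the same and -0.0174 for different numbers). In simulated data for old against adult females, 58 of 60 changed miRNAs of 314 were recovered with 1 false call. Those values were normal around 1 mean per miRNA, with changes of equal size in old females and no floor, undetected arrays or differences between ages within a class. The recovery therefore does not carry over to miRNAs with undetected arrays, such as the members.

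The members, the marker lists and the comparisons were chosen with earlier results of these data known. The sex differences over whole classes were added after seeing the data. Named miRNAs are the members, the 5 most correlated with miR-375, the 3 sharing most arrays with miR-216a and with miR-217, and listed markers. Alternatives covered the percentile, undetected values, background correction (normexp on the median signal, with an offset of 50, because the files used here hold no mean signal), processed signals, the deposited table, a filter, blocks for scan, slide and replicate number, left-out arrays and the methods' t-test. Python 3 scripts used pandas and matplotlib.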

Additional observations from a re-analysis of the deposited data

Results flagged for a closer look

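In 16 cases of 32 groups with differing values, 1 array stood apart from the rest of its group by Dixon's test at its 95% limit, which chance would give in about 1 in 20 groups. Where a single array of a group detected a miRNA, that array is set apart by construction, as holds for miR-216a on 2-week female 4 (0.105), 5-week female 1 (0.106), 8-week male 1 (0.113), 15-week female 2 (0.240), 15-week male 1 (0.134), 21-week male 3 (0.827) and 52-week female 1 (0.176), for miR-217 on 15-week female 2 (0.110), 21-week female 3 (0.279) and 21-week male 3 (0.673), and for miR-375 on 15-week male 1 (0.277). Among 21-week females, replicate 3 also stood apart in miR-216a (0.463). For miR-375 the other arrays were 5-week female 1 (0.326), 21-week male 3 (0.803), 78-week male 6 (1.46) and, as the lowest of its group, 104-week male 2 (0.194). Of the 5 miR-375 arrays, 15-week male 1, 5-week female 1 and 21-week male 3 also had detected miR-216a.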

How the results depend on the processing

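The direction of the miR-375 differences of adult against young, of old against adult and between the sexes within adult and old animals was the same under every alternative run, and with any 1 array left out the calls of these age classes and of the adult sex difference all stayed (old against young was not run under the alternatives). Counts of detected arrays were 76, 16 and 5 for miR-375, miR-216a and miR-217 under the software's flag and above 3 times the error as well. These rules are not independent, since the code for undetected miRNAs comes from the same software call, so their equal counts are no separate check. With normexp, whose offset compresses dim signals, miR-375 fell under 1.5-fold although its adjusted p stayed under 0.05 for the class differences: old against adult 0.29 in females and 0.14 in males, adult against young -0.33 and -0.37, male minus female -0.11 in adults and -0.26 in old animals. It gave 0 of 36 pairs of ages called in either sex and 0 ages between the sexes. With the percentile over all miRNAs, adult against young in females was -0.85, old against adult in males 2.51 (adjusted p = 0.0811) and the old sex difference -1.25, none called, with 2 pairs of ages in females, 1 in males and 1 age between the sexes. In males, where the main count was 6 pairs, 10 were called with the percentile over miRNAs detected on all arrays, the raw minimum before scaling, the processed signal, and without arrays with detected miR-216a or miR-217 (also without 78-week male 6), and 11 with undetected values at the lowest of the array. The cause was not tested. The old sex difference was not called with scan (-1.29) or slide (-1.38) as a block, without arrays with acinar miRNAs (-1.38), or without 78-week male 6 as well (-1.59), and lost its call in 47 of 88 fits that left out 1 array (-1.53 to -1.18 in those, -1.71 to -1.18 in all). The methods' t-test called 1 age between the sexes. The difference of the rise between the sexes turned sign with undetected values at the lowest of the array (-0.35), the raw minimum (-0.04996), normexp (-0.15) and the processed signal (-0.36), and was never called. At 2 weeks the sex difference of miR-375 turned to 0.0435 with the percentile over miRNAs detected on all arrays. With any 1 array left out, ages called between the sexes numbered 1 to 3, with 1 without 21-week female 3. With the replicate number as a block, miR-216a and miR-217 at 78 weeks lost their call (adjusted p = 0.0534 each), the rise of miR-375 from 8 to 21 weeks in females gained one (14 pairs in place of 13), and no other call on miR-375 changed. Depth of signal limits miR-216a, which read at most 10.4 intensity units on 11 of its 16 arrays, and the number of arrays, 5, limits miR-217.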
